A study of Mus musculus with 12 samples.

Results

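The genes described are the cytochrome P450 genes of mouse, the Cyp genes, that were expressed in the epithelium of the circumvallate papilla. They were chosen by symbol: of the 52670 gene symbols, 95 had the form Cyp, a number, letters and a number, and 2 of these are pseudogenes in RefSeq. Cyp51, the sterol demethylase, and Cyp4a12b, with a highest bin mean of 2.31 TPM, do not have that form and were left out. Of the 93 P450 genes that remained, 42 had 0 counts in every library and 28 reached a mean of 1 TPM or more in some bin. TPM is a transcript level scaled to the library total and corrected for transcript length. These 28 genes are the ones described. The last genes inside the threshold were Cyp2u1 at 1.43, Cyp2ab1 at 1.07 and Cyp2g1 at 1.05 TPM, and the first outside it were Cyp1b1 at 0.976, Cyp26c1 at 0.802 and Cyp27b1 at 0.615 TPM, each by the mean of the bin where the gene was highest. A threshold of 0.5 TPM would keep 31 genes and 1 of 2 TPM would keep 25.

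The circumvallate papilla is a taste papilla far back on the tongue, and its epithelium holds taste buds and layered keratinocytes. Adult Sox2GFP mice of 11 to 12 weeks, whose green fluorescent protein (GFP) reports the transcription factor gene Sox2, gave all libraries, and all 4 bins share this genotype, with no treatment named. Peeled and dissociated cells were sorted by GFP brightness into the bins Low, MedLow, HiMed and High, and cells without GFP were not kept. Polyadenylated RNA was sequenced in 3 libraries per bin, 12 in all, and each replicate pooled 7 to 13 mice. The labels do not give the sex or strain of the mice, or a sorting date. Libraries held 25.7M to 55.6M counts. Sox2 itself averaged 55.9 TPM in Low, 76.5 TPM in MedLow, 145.0 TPM in HiMed and 342 TPM in High. Summed markers of basal keratinocytes were lowest in High (3353 to 5135 TPM) and highest in Low (25591 to 26084 TPM). Summed markers of suprabasal keratinocytes were highest in MedLow (24807 to 25551 TPM), and summed taste bud markers in High (2423 to 4571 TPM). Type I taste cell markers also summed higher in High (178 to 333 TPM) than in Low (14.2 to 20.4 TPM). Type II taste cell markers summed to 45.2 to 72.5 TPM in High and 84.8 to 198 TPM in Low. The type III sums of High and Low overlapped. By edgeR at an adjusted p under 0.05, 0 type II markers were higher and 4 of 5 lower in High than in Low. For type III, 1 of 5 was higher and 3 lower, where 20.1% of all genes tested were higher and 21.2% lower. In such bulk samples, fewer cells of a type and less RNA per cell cannot be told apart.

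Cytochrome P450 enzymes are heme proteins that insert an oxygen atom into fat-soluble molecules. Most sit in the endoplasmic reticulum and take electrons from P450 oxidoreductase, and a few sit in mitochondria and take them from ferredoxin. Some families break down drugs and plant compounds, which reach the tongue in food, and others make or remove the body's own signals, such as retinoic acid, steroids, bile acids and oxidised fatty acids.

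The summed level of the 28 P450 genes was lowest in Low and highest in HiMed. It was 478, 560.2 and 509.7 TPM in the Low libraries, 1322, 1134 and 1195 TPM in MedLow, 1501, 1883 and 1704 TPM in HiMed, and 1136, 1327 and 1282 TPM in High. Every Low library lay below every library of the other bins, every HiMed library lay above all the rest, and MedLow and High overlapped. A single gene, Cyp2f2, made up 41.8 ± 3.62% of the sum in Low and 56.3 ± 2.89% in MedLow, with 63.3 ± 0.363% in HiMed and 51.8 ± 2.10% in High (SD, n = 3). Without Cyp2f2 the sum was 300.0 ± 21.4 TPM in Low, 530.0 ± 10.2 TPM in MedLow, 622 ± 64.3 TPM in HiMed and 601 ± 50.3 TPM in High.

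**Figure D1:**
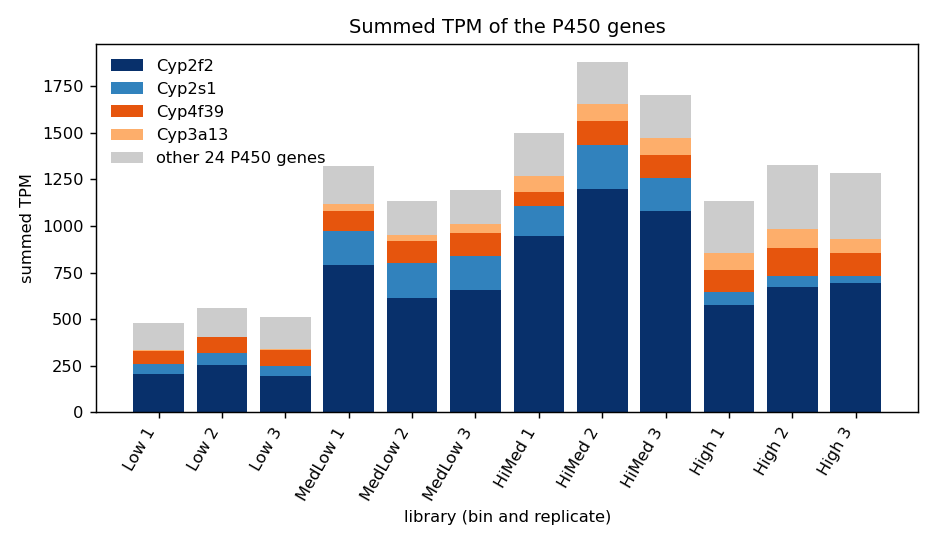
Summed TPM of the 28 P450 genes in each library, stacked by gene, with libraries ordered by bin from Low to High. Cyp2f2 is the largest block in every library, and the 3 Low libraries, at 478 to 560.2 TPM, are the lowest.

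By mean TPM, 7 of the 28 genes peaked in Low and 2 in MedLow, with 8 in HiMed and 11 in High. The 7 that peaked in Low were Cyp4b1, Cyp39a1, Cyp26b1, Cyp2w1, Cyp2d22, Cyp2ab1 and Cyp2g1. Cyp2c65 and Cyp2c66 peaked in MedLow. Cyp2f2, Cyp2s1, Cyp3a13, Cyp2a5, Cyp7b1, Cyp46a1, Cyp2j9 and Cyp2u1 peaked in HiMed, and Cyp4f39, Cyp27a1, Cyp2j6, Cyp26a1, Cyp4f17, Cyp4f13, Cyp4f16, Cyp20a1, Cyp17a1, Cyp2b10 and Cyp4v3 in High. Of all 15413 genes with a mean of 1 TPM or more in some bin, 22.1% peaked in Low and 11.9% in MedLow, with 18.2% in HiMed and 47.7% in High. TPM and the counts scaled for testing are on different footings: the TPM ratio of High over Low ran 0.21 above the scaled-count ratio on the log2 scale at the median gene. By mean CPM, counts scaled to the library total with no length correction, 7 of the 28 peaked in Low and 4 in MedLow, with 7 in HiMed and 10 in High, against 27.4%, 20.1%, 16.2% and 36.3% of all genes in that order. Only Cyp2s1 and Cyp4f39 changed peak bin between these measures, both to MedLow by CPM.

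**Figure D2:**
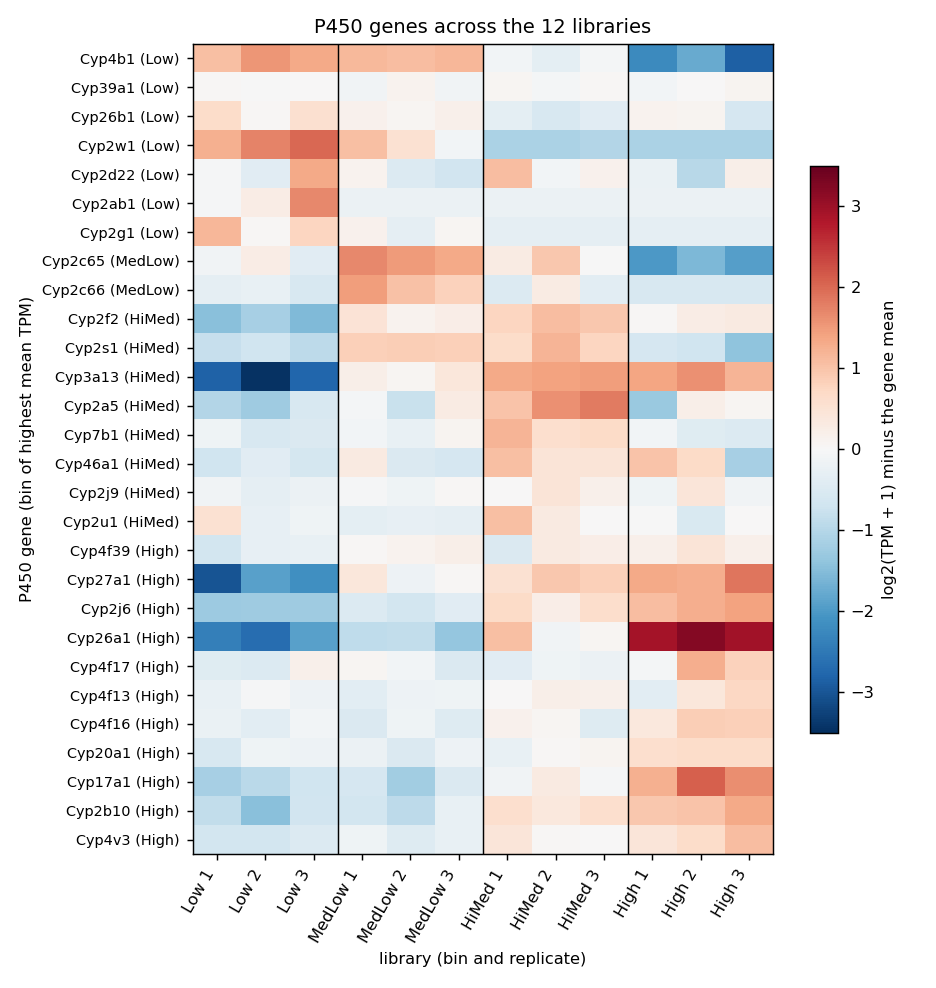
Level of each of the 28 P450 genes (rows, with the bin of the highest mean TPM in brackets) in the 12 libraries (columns, Low to High), as log2(TPM + 1) minus the mean of the gene over the libraries. Red is above and blue below that mean. Cyp26a1, Cyp3a13 and Cyp27a1 run from blue in Low to red in High, and Cyp4b1 runs the other way.

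Of the 28 genes, 27 had enough counts to be tested with edgeR's quasi-likelihood test, and genes with an adjusted p under 0.05, over all genes tested, are given as called. A difference of any kind among the 4 bins was called for 21 of the 27, where 41.8% of all 17432 genes tested were called. The 6 with no call were Cyp46a1, Cyp4f39, Cyp39a1, Cyp2u1, Cyp2j9 and Cyp4f13. The P450 genes also had to reach a mean of 1 TPM in some bin, a rule that the 17432 genes did not have to meet. Some, such as Cyp2g1 at 1.05 TPM in Low and 0.223 TPM in MedLow, met it only in their highest bin. Each share of all genes tested that is set beside these P450 genes is therefore not of a like set. High against Low gave 11 P450 genes higher in High, against 20.1% of all genes, and 7 lower, against 21.2% of all genes. The median log2 fold change in edgeR was 0.45 over the 27 genes and -0.01 over all genes tested. A test on log2(TPM + 1) gave 12 higher and 3 lower, with 4209 and 1999 of all genes in place of 3512 and 3702.

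On that TPM scale the calls of all genes were 1157 higher and 440 lower in HiMed than in MedLow, in place of 1286 and 1066, and 2010 and 1058 in High against HiMed, in place of 1840 and 2018. Between neighbouring bins, 7 P450 genes were higher in MedLow than in Low, against 4.08% of all genes. None was called lower in MedLow than in Low, where 2.52% of all genes were called. At an unadjusted p below 0.05, 2 were lower, Cyp2d22 and Cyp2w1, and DESeq2 and a fit to the 6 libraries of these bins each called 1. HiMed against MedLow gave 6 higher (7.38% of all genes) and 4 lower (6.12% of all genes). High against HiMed gave 6 higher (10.6% of all genes) and 8 lower (11.6% of all genes). In 10 of the 27 genes the bin of the highest mean was called above each of the other 3 bins, which held for 10.6% of all genes: Cyp2c65 with MedLow, Cyp2f2, Cyp2a5 and Cyp7b1 with HiMed, and Cyp26a1, Cyp17a1, Cyp2j6, Cyp20a1, Cyp4f16 and Cyp4f17 with High. Without MedLow replicate 2 the counts of HiMed against MedLow were 3 higher and 2 lower, and 6 genes had such a peak. The lower count was also 2 without MedLow replicate 1, HiMed replicate 1 or HiMed replicate 3. Without HiMed replicate 3, 5 genes had such a peak.

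**Figure D3:**
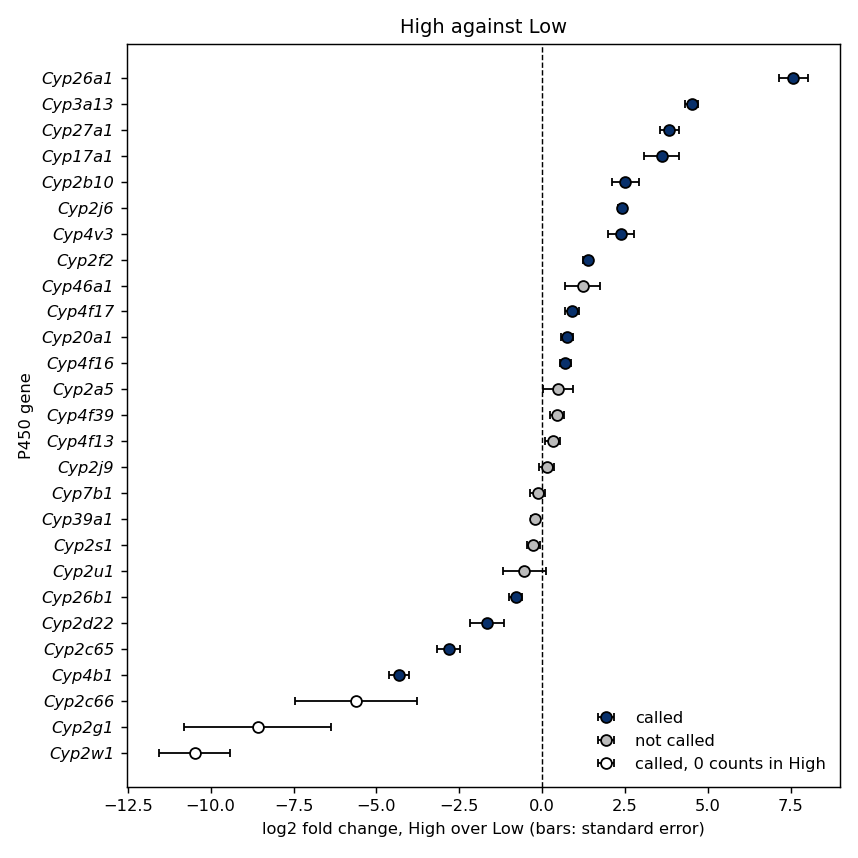
Log2 fold change of High over Low for the 27 tested P450 genes, with bars of 1 standard error. Filled dark points were called, grey points were not, and open points mark called genes with 0 counts in High, whose fitted value depends on a prior count. Cyp26a1, at 7.58, has the largest positive value.

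The CYP26 enzymes hydroxylate retinoic acid and so remove this vitamin A signal. Cyp26a1 climbed with Sox2 reporter brightness, while Cyp26b1 was lower in High than in Low. Cyp26a1 stood at 0.257, 0.0378 and 0.792 in Low, 2.56, 2.65 and 1.62 in MedLow, 12.7, 5.1001 and 5.92 in HiMed and 49.2, 60.8 and 50.3 in High TPM. All 3 High libraries lay above all others, and no 2 bins overlapped. High exceeded Low (log2 fold change 7.58 ± 0.44 (SE), adjusted p = 1.99e-08, edgeR), HiMed exceeded MedLow (adjusted p = 0.00342) and MedLow exceeded Low (adjusted p = 0.000543). The HiMed call was lost on log2(TPM + 0.1), at adjusted p = 0.0866 by limma, and the MedLow call on unfiltered log2(TPM + 1), at adjusted p = 0.0879. High also exceeded HiMed, by 2.71 ± 0.32 on the log2 scale (adjusted p = 4.78e-05).

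Cyp26b1 stood at 15.5, 9.95 and 14.7 in Low, 10.9, 10.2 and 10.98 in MedLow, 7.35, 6.26 and 7.13 in HiMed and 10.5, 10.4 and 6.14 in High TPM. Low and HiMed did not overlap, while High overlapped both. High was lower than Low (log2 fold change -0.79 ± 0.20 (SE), adjusted p = 0.00546, edgeR) and HiMed was lower than MedLow (adjusted p = 0.0245). The High against Low call was lost on log2(TPM + 1), at adjusted p = 0.0658 by limma, and the HiMed call was lost there too (adjusted p = 0.124) and without any 1 of the 6 libraries of those bins. The enzyme of the pair with the higher TPM was Cyp26b1 in Low and MedLow and Cyp26a1 in High. Cyp26c1, beside Cyp26a1 on chromosome 19, had its highest bin mean, 0.802 TPM, in High and stayed below the threshold. With 0 counts in Low, it was called higher in High than in Low (adjusted p = 0.0268, edgeR). The test of any difference gave no call for Cyp26c1 (adjusted p = 0.0868).

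The windows from 250 bases before to 50 bases after the start of Cyp26a1 and Cyp26b1 are shown because these relatives went opposite ways and Cyp26a1 is known as a gene that retinoic acid turns on. They come from RefSeq on GRCm38.p6, which had windows for 21 of the 28 genes. Cyp26a1 lies at chr19:37697558-37697857 on the plus strand and Cyp26b1 at chr6:84593761-84594060 on the minus strand. Capitals mark 2 retinoid half-sites with the 5 bases between them.
Cyp26a1: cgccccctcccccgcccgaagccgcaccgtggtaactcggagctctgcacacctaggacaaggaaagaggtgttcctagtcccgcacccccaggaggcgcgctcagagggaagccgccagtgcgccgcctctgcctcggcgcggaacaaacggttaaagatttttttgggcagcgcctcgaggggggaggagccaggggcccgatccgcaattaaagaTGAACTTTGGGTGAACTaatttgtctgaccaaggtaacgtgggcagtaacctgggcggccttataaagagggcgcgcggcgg
Cyp26b1: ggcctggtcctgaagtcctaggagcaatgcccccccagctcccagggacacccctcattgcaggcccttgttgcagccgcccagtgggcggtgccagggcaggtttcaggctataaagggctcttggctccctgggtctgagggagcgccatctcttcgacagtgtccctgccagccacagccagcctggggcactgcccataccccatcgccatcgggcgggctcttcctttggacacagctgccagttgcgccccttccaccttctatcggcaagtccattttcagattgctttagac
The search looked for the half-site AGGTCA or AGTTCA as 2 copies in the same direction, 5 bases apart, on both strands. It matched in Cyp26a1 from base -32 to base -16, read on the minus strand, and in none of the other 20 windows. Of 32851 mouse windows of the same length, 13 held such a pair (0.0396%). A single half-site was in 6 of the 21 windows and in 27.7% of all windows, the pair's own half-sites included. The core AACAAT that SOX proteins bind was in 1 of the 21, that of Cyp2c65, and in 10.7% of all windows, and GCGTG, the core bound by the aryl hydrocarbon receptor, in 9 of the 21 and in 32.4% of all windows.

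Of the genes for retinoid uptake, synthesis, binding and reception, 16 of 17 were tested, and 9 were higher and 4 lower in High than in Low by edgeR, where 20.1% of all genes tested were higher and 21.2% lower. Aldh1a1, which makes retinoic acid, averaged 190 TPM in High and 5.46 TPM in Low (log2 fold change 4.92, adjusted p = 1.21e-06), and its relative Aldh1a3 averaged 85.5 TPM in High and 4.27 TPM in Low (4.32, adjusted p = 6.76e-06). Rarb, a retinoic acid receptor, averaged 53.1 TPM in High and 2.23 TPM in Low (4.92, adjusted p = 1.17e-08). Stra6, the retinol uptake receptor, was higher by 3.32 and Dhrs9, a dehydrogenase that can oxidise retinol, by 4.96 on the log2 scale. Crabp1, which carries retinoic acid inside cells, went the other way, with 12.1 TPM in High and 154 TPM in Low (-3.78, adjusted p = 2.16e-06).

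**Figure D4:**
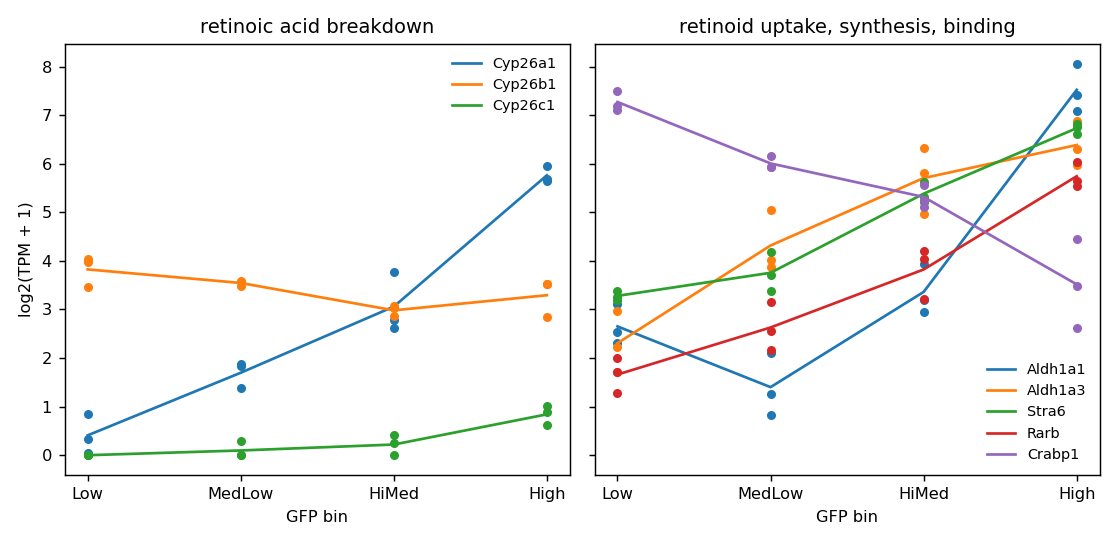
Levels of retinoid genes as log2(TPM + 1) across the bins Low to High, with points for libraries and lines through bin means. The left panel has the CYP26 genes and the right panel genes of uptake, synthesis, reception and binding. Cyp26a1, Aldh1a1, Aldh1a3, Stra6 and Rarb are higher in High than in Low, and Cyp26b1 and Crabp1 are lower. Cyp26c1 is at 0 in Low and averages 0.802 TPM in High.

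The CYP2 family, which holds many of the enzymes that act on foreign compounds, gave 13 of the 28 genes and most of the summed level. Cyp2f2, the naphthalene-oxidising P450 known from club cells of the mouse airway, stood at 202, 252 and 193 in Low, 788, 615 and 657 in MedLow, 945, 1198 and 1081 in HiMed and 576, 670.0 and 695 in High TPM. Low was lowest and HiMed highest, with no overlap between HiMed and any other bin. The level in High was above that in Low (log2 fold change 1.37 ± 0.14 (SE), adjusted p = 2.56e-06, edgeR) and was lower than HiMed (log2 fold change -0.86 ± 0.13 (SE), adjusted p = 0.000455). HiMed exceeded MedLow by 0.53 on the log2 scale (adjusted p = 0.0172), a call lost without MedLow replicate 2 or 3 or without HiMed replicate 2 or 3.

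Cyp2s1, a P450 of epithelia that the aryl hydrocarbon receptor can induce, stood at 58.001, 62.9 and 53.7 in Low, 183, 188 and 183 in MedLow, 161, 236 and 175 in HiMed and 68.2, 63.04 and 37.96 in High TPM. The middle bins did not overlap the outer ones, and Low and High overlapped. MedLow exceeded Low (log2 fold change 1.68 ± 0.20 (SE), adjusted p = 0.000174, edgeR) and High was lower than HiMed (log2 fold change -1.89 ± 0.20 (SE), adjusted p = 2.12e-05). High and Low gave no call (log2 fold change -0.27 ± 0.19 (SE), adjusted p = 0.308). The summed suprabasal keratinocyte markers were also higher in MedLow than in Low and lower in High than in HiMed. Of these markers 5 of 5 were called among the bins, where 41.8% of all genes were. They summed to 7586 to 8934 TPM in Low, 24807 to 25551 in MedLow, 8097 to 23909 in HiMed and 1370 to 2114 in High. Unlike Cyp2s1, the sum was lower in High than in Low with no overlap, and HiMed replicate 1 lay in the Low range. The part of suprabasal cells in the Cyp2s1 result was not tested.

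Cyp2c65 and Cyp2c66, neighbours on chromosome 19 that are known from the mouse gut and act on arachidonic acid, were highest in MedLow. Cyp2c65 stood at 4.96, 6.74 and 3.95 in Low, 19.9, 17.2 and 15.3 in MedLow, 6.94, 11.5 and 5.38 in HiMed and 0.602, 1.19 and 0.714 in High TPM. The MedLow libraries lay above all others and the High libraries below all others. MedLow exceeded Low (log2 fold change 1.78 ± 0.32 (SE), adjusted p = 0.00441, edgeR) and High was lower than HiMed (log2 fold change -3.35 ± 0.36 (SE), adjusted p = 2.19e-05). HiMed was lower than MedLow (adjusted p = 0.0183), a call lost without MedLow replicate 1 or 2 or HiMed replicate 1 or 3, and on unfiltered log2(TPM + 1) (adjusted p = 0.057). Cyp2c66 averaged 2.18 TPM in MedLow and 0.138 TPM in Low, and had 0 counts in High. By edgeR neither MedLow over Low (adjusted p = 0.15) nor HiMed against MedLow (adjusted p = 0.212) was called for Cyp2c66. DESeq2 and limma on each TPM scale tried called MedLow over Low, and limma on log2(TPM + 1) also called HiMed lower than MedLow. The High level of Cyp2c66 was at least 109-fold lower than MedLow, taking 3 counts over the High libraries as the floor. The call of Cyp2c66 between High and Low (adjusted p = 0.0296) was lost without Low replicate 1 or 2 or any 1 High library, and on each TPM scale tried, at adjusted p = 0.346 to 0.641 by limma. Both genes had split reads, seen as counts that are not whole numbers, in the same 6 of the 12 libraries. There the fractions of the 2 counts completed each other to a whole number. In MedLow the counts of Cyp2c65 and Cyp2c66 were 930.81 and 116.19, 853.08 and 81.921, and 682.58 and 60.423. Reads were thus split between these 2 genes, and a part of the counts of each may belong to the other. The part of split reads in the MedLow peak of Cyp2c66 was not tested. Of the 14 Cyp2c genes in that cluster, 11 had no counts at all.

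Cyp2a5, which oxidises coumarin and nicotine, was highest in HiMed. It stood at 1.65, 1.26 and 2.64 in Low, 4.16, 2.11 and 5.55 in MedLow, 9.802, 15.4 and 18.1 in HiMed and 1.19, 5.19 and 4.61 in High TPM. HiMed lay above every other bin, and Low, MedLow and High overlapped. High was lower than HiMed (log2 fold change -2.82 ± 0.46 (SE), adjusted p = 0.000602, edgeR), and HiMed exceeded MedLow (adjusted p = 0.0146), a call lost without MedLow replicate 1 or 2 or HiMed replicate 3, and on unfiltered log2(TPM + 1) (adjusted p = 0.0702). With the replicate number as a block, MedLow also exceeded Low (adjusted p = 0.0359), as it did with DESeq2, without a filter on low counts and without HiMed replicate 1. Cyp2a4, its close relative, had 0 counts in every library.

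Cyp2j6, of a family that oxidises arachidonic acid, rose in every step. Its libraries had 9.36, 9.58 and 9.54 in Low, 17.02, 14.96 and 18.1 in MedLow, 39.02, 28.4 and 37.2 in HiMed and 52.3, 59.3 and 65.8 in High TPM. No 2 bins overlapped. In High it was higher than in Low (log2 fold change 2.42 ± 0.12 (SE), adjusted p = 4.72e-09, edgeR), and the steps from each bin to the next brighter were 0.83, 0.94 and 0.64 on the log2 scale, each called. Its neighbour on chromosome 4, Cyp2j9, averaged 5.01 ± 0.435 TPM in Low, 5.72 ± 0.423 TPM in MedLow, 7.12 ± 1.24 TPM in HiMed and 6.39 ± 1.77 TPM in High, and no difference among the bins was called (adjusted p = 0.496).

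Cyp2b10, which phenobarbital induces in liver, stood at 1.35, 0.5599 and 1.72 in Low, 1.75, 1.26 and 2.59 in MedLow, 5.43, 4.51 and 5.502 in HiMed and 7.27, 7.53 and 9.799 in High TPM. High lay above every library of the other bins, and Low and MedLow overlapped. High exceeded Low (log2 fold change 2.51 ± 0.41 (SE), adjusted p = 0.000198, edgeR), but no single step between neighbouring bins was called. With the replicate number as a block, HiMed also exceeded MedLow (adjusted p = 0.0215), as it did with DESeq2, on each TPM scale tried, with scaling by library size, with a filter of 1 CPM, and without Low replicate 2 or MedLow replicate 3. The receptor that mediates this induction in liver, Nr1i3, was close to 0, with bin means up to 0.0537 TPM.

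Cyp2w1, known in humans from fetal gut and colon tumours, was found in the dim bins. The libraries measured 4.07, 6.19 and 7.67 in Low, 3.45, 2.08 and 0.999 in MedLow, 0, 0 and 0.0559 in HiMed and 0 in all 3 High libraries TPM. MedLow overlapped no other bin, and High held no counts, at least 211-fold lower than Low. HiMed was lower than MedLow (adjusted p = 0.0004, edgeR), and DESeq2 also called MedLow lower than Low. Cyp2g1, a P450 known from the olfactory mucosa, averaged 1.05 TPM in Low and 0.223 TPM in MedLow and had 0 counts in HiMed and High. High was at least 56.3-fold lower than Low for Cyp2g1 (adjusted p = 0.012). Cyp2ab1, whose counts were 5, 16 and 12 in Low and 0 elsewhere, was not tested, and its High level was at least 17.9-fold lower than Low. Its mean of 1.07 TPM rested on Low replicate 3 at 2.70 TPM, and its ratio of CPM to TPM differed 14.5-fold between libraries, the widest among the 28 genes.

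The marker sums of glands, of fibroblasts and of Schwann cells and neurons were highest in Low, like Cyp2w1, Cyp2g1 and Cyp2ab1, while the leukocyte sum was highest in High. The 8 markers of von Ebner's glands and their ducts summed to 342 to 1638 TPM in Low, 44.2 to 73.3 in MedLow, 19.9 to 22.98 in HiMed and 22.7 to 156 in High. Of the 7 that were tested, 5 were lower in High than in Low and 1 was higher, and Pip was at 0 in every library. The 7 fibroblast markers summed to 4.13 to 13.0 TPM in High and 548 to 603 TPM in Low, nearly all of the Low sum from Dcn, while Col1a1, Col1a2 and Col3a1 were under 2 TPM and Lum at 0 in every library. Only 3 of these 7 were tested, of which Dcn was lower and Pdgfra higher in High than in Low (log2 fold change 1.16, adjusted p = 0.0437, edgeR). The 5 Schwann cell and neuron markers summed to 19.3 to 24.5 TPM in High and 28.4 to 53.1 TPM in Low. The 7 leukocyte markers summed to 156 to 469 TPM in High and 43.3 to 69.4 TPM in Low, nearly all of the High sum from Lyz2. Of the 4 leukocyte markers tested, Lyz2 was higher in High than in Low and Cd74 lower, with 0.461 TPM in High and 9.16 TPM in Low. Ptprc was under 1 TPM and Cd3e at 0 in every library. Endothelial and skeletal muscle markers summed to at most 3.98 TPM in any library. Low replicate 1 had the lowest gland sum of the Low libraries, and there Cyp2g1 was at its highest, 1.78 TPM. In that library Cyp2w1, at 4.07 TPM, and Cyp2ab1, at 0.131 TPM, were at their lowest among the Low libraries. The part of these cells in the results was not tested.

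Cyp2d22, the mouse counterpart of human CYP2D6, averaged 2.79 ± 2.59 TPM in Low, 1.16 ± 0.639 TPM in MedLow, 2.71 ± 1.68 TPM in HiMed and 1.24 ± 0.869 TPM in High (SD, n = 3). It was called lower in High than in Low (log2 fold change -1.67 ± 0.51 (SE), adjusted p = 0.0174, edgeR), although the Low libraries ran from 1.01 to 5.76 TPM and overlapped those of High. Without Low replicate 3 the adjusted p was 0.0963, without High replicate 2 it was 0.0631, and on log2(TPM + 1) it was 0.323. The call of any difference was also lost with the replicate block (adjusted p = 0.0505) and without a filter on low counts (adjusted p = 0.0755). Cyp2u1, a fatty acid hydroxylase, averaged 0.767 ± 0.576 TPM in Low, 0.358 ± 0.0249 TPM in MedLow, 1.43 ± 0.947 TPM in HiMed and 0.511 ± 0.302 TPM in High, with no difference called (adjusted p = 0.381).

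**Figure D5:**
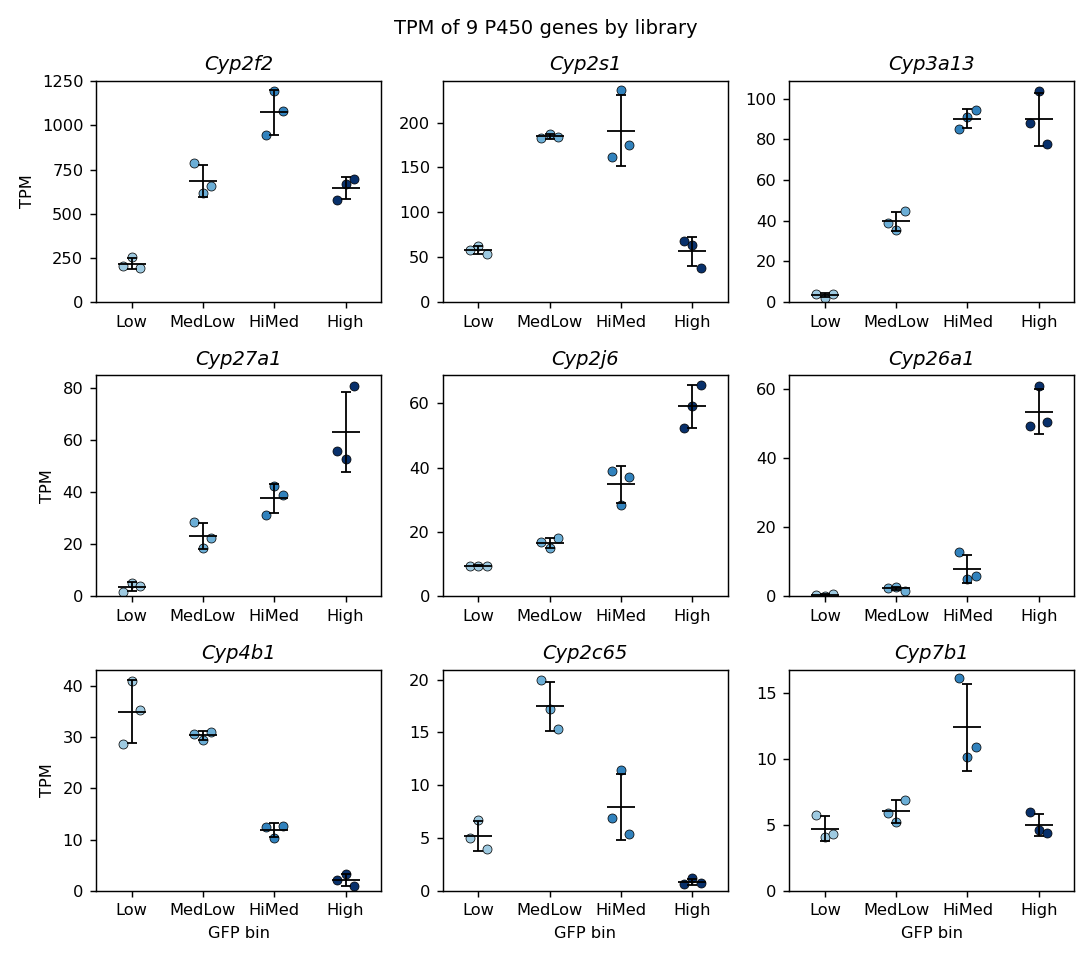
TPM of 9 P450 genes in each library (points, replicates 1 to 3 from left to right) by GFP bin, with the bin mean and SD (n = 3) as bars and a linear axis from 0. Cyp2j6 and Cyp26a1 step up at each bin, Cyp2f2 and Cyp7b1 are highest in HiMed, Cyp2c65 in MedLow, and Cyp4b1 is lowest in High.

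Cyp3a13 was the only one of 7 Cyp3a genes with any counts. CYP3A enzymes oxidise many drugs and steroids, and Cyp3a13 is the member known from mouse intestine. It stood at 3.84, 2.11 and 4.02 in Low, 38.8, 35.4 and 44.7 in MedLow, 85.2, 90.7 and 94.5 in HiMed and 87.8, 104 and 77.8 in High TPM. Low lay far below the other bins, and HiMed and High overlapped. The level in High was above that in Low (log2 fold change 4.51 ± 0.20 (SE), adjusted p = 2.26e-09, edgeR), MedLow exceeded Low (log2 fold change 3.57 ± 0.20 (SE), adjusted p = 3.32e-07) and HiMed exceeded MedLow (log2 fold change 1.07 ± 0.17 (SE), adjusted p = 0.00101). High against HiMed gave -0.13 ± 0.17 (adjusted p = 0.655). Its mean was 89.7 TPM in High and 90.1 TPM in HiMed, and the peak moved to High without HiMed replicate 3, High replicate 1 or High replicate 3. Nr1i2, the receptor through which drugs induce CYP3A genes in liver, had 0 counts in every library.

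The CYP4 enzymes hydroxylate fatty acids and eicosanoids, and 6 of 17 such genes reached the threshold. Cyp4b1, known from lung, where it activates the toxin ipomeanol, was lower in the brighter bins. Its libraries had 28.6, 40.98 and 35.2 in Low, 30.6, 29.4 and 31.04 in MedLow, 12.4, 10.2 and 12.7 in HiMed and 2.08, 3.25 and 0.971 in High TPM. The High libraries lay below all others and HiMed below the dimmer bins, while Low and MedLow overlapped. High was lower than Low (log2 fold change -4.32 ± 0.29 (SE), adjusted p = 6.84e-08, edgeR), HiMed lower than MedLow (log2 fold change -1.48 ± 0.25 (SE), adjusted p = 0.00143) and High lower than HiMed (log2 fold change -2.62 ± 0.27 (SE), adjusted p = 1.94e-05). The basal keratinocyte marker sum also fell with brightness, with 25591 to 26084 TPM in Low, 15639 to 17418 in MedLow, 8724 to 9217 in HiMed and 3353 to 5135 in High, and its part in the Cyp4b1 result was not tested.

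The Cyp4f genes, neighbours on chromosome 17, gave 4 of the 6. Cyp4f39, the counterpart of human CYP4F22, which hydroxylates very long fatty acids for the acylceramides of the skin barrier, was the most abundant of the 6 by TPM. The libraries measured 67.97, 86.2 and 87.97 in Low, 109, 115 and 123 in MedLow, 74.6, 132 and 124 in HiMed and 121, 147 and 120.3 in High TPM, with every MedLow and High library above every Low one and HiMed overlapping them all. No call was made among the bins (adjusted p = 0.181), but with the replicate number as a block a difference was called (adjusted p = 0.0233), with High over Low at adjusted p = 0.0247 and MedLow over Low at adjusted p = 0.0200. High over Low was also called without a filter on low counts (adjusted p = 0.0368), on each TPM scale tried (adjusted p = 0.0112 to 0.0309 by limma) and without HiMed replicate 1 (adjusted p = 0.0232), and ranged up to adjusted p = 0.423 over the alternatives. Cyp4f17 stood at 8.301, 7.99 and 13.02 in Low, 12.2, 10.6 and 7.804 in MedLow, 8.54, 10.3 and 9.88 in HiMed and 10.8, 28.9 and 20.8 in High TPM. High exceeded Low in Cyp4f17 (log2 fold change 0.90 ± 0.20 (SE), adjusted p = 0.00279, edgeR), although High replicate 1 lay inside the range of Low, and on unfiltered log2(TPM + 1) the adjusted p was 0.0678. On log2(TPM + 1) the calls of any difference (adjusted p = 0.0629, limma) and of High over HiMed (adjusted p = 0.0525) were lost. Cyp4f16 averaged 9.72 ± 1.02 TPM in Low, 8.86 ± 1.399 TPM in MedLow, 11.2 ± 2.53 TPM in HiMed and 19.6 ± 3.65 TPM in High, with High above Low (log2 fold change 0.70 ± 0.17 (SE), adjusted p = 0.00457). Its call of High over HiMed (adjusted p = 0.0161, edgeR) was lost without HiMed replicate 3 (adjusted p = 0.0765) or High replicate 3 (adjusted p = 0.0712). Cyp4f13 averaged 12.6 ± 1.05 TPM in Low, 12.1 ± 1.09 TPM in MedLow, 15.8 ± 1.14 TPM in HiMed and 18.005 ± 6.76 TPM in High and no difference was called (adjusted p = 0.536). Counts were not whole in 9 of the 12 libraries for Cyp4f16, 7 for Cyp4f13, 5 for Cyp4f39 and 4 for Cyp4f17, so reads were split between similar sequences and values within this group are uncertain.

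Cyp4v3, the counterpart of human CYP4V2, whose loss causes a crystalline disease of the retina, stood at 0.353, 0.361 and 0.539 in Low, 0.932, 0.542 and 0.788 in MedLow, 1.87, 1.18 and 1.13 in HiMed and 1.83, 2.33 and 3.47 in High TPM. Its High and Low libraries did not overlap. In High it was higher than in Low (log2 fold change 2.38 ± 0.40 (SE), adjusted p = 0.00031, edgeR), with no call between neighbouring bins. Of the acylceramide enzymes, 5 of 16 were higher and 2 lower in High than in Low, against 20.1% and 21.2% of all genes. Ephx3, an epoxide hydrolase, was higher by 2.77 and Degs2, a sphingolipid hydroxylase, by 3.84 on the log2 scale, while Pnpla1 and Aloxe3 were lower, at -3.75 and -2.35. Of the eicosanoid enzymes, 4 of 14 tested were higher and 5 lower, against the same shares of all genes. Ptgs1, a cyclooxygenase, averaged 2.12 TPM in High and 48.0 TPM in Low (-4.66, adjusted p = 1.33e-06), and Hpgd, which inactivates prostaglandins, averaged 5.38 TPM in High and 95.1 TPM in Low (-4.33, adjusted p = 3.11e-07). Ptgs2, the other cyclooxygenase, was higher by 1.69 and Alox12, a lipoxygenase, by 1.10 on the log2 scale.

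Of the sterol and steroid P450 genes, 5 of 12 reached the threshold. Cyp27a1, the mitochondrial enzyme that hydroxylates the cholesterol side chain, rose with brightness. It stood at 1.76, 5.05 and 4.102 in Low, 28.6, 18.7 and 22.2 in MedLow, 31.3, 42.5 and 38.9 in HiMed and 55.7, 52.6 and 80.7 in High TPM. No 2 bins overlapped. High exceeded Low (log2 fold change 3.84 ± 0.29 (SE), adjusted p = 2.13e-07, edgeR) and MedLow exceeded Low (log2 fold change 2.73 ± 0.28 (SE), adjusted p = 6.25e-05), and the brighter steps were not called (adjusted p = 0.236 for HiMed against MedLow and adjusted p = 0.0997 for High against HiMed), although High over HiMed was called without a filter on low counts.

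Cyp7b1, which hydroxylates oxysterols, stood at 5.78, 4.08 and 4.299 in Low, 5.93, 5.197 and 6.92 in MedLow, 16.1, 10.1 and 10.9 in HiMed and 5.95, 4.602 and 4.39 in High TPM. HiMed lay above all other libraries, and the others overlapped. High was lower than HiMed (log2 fold change -1.43 ± 0.23 (SE), adjusted p = 0.000532, edgeR) and HiMed exceeded MedLow (adjusted p = 0.0151), a call lost without MedLow replicate 1 or 2 or HiMed replicate 1. Between High and Low the log2 fold change was -0.14 ± 0.23 (adjusted p = 0.682), and its sign turned on the TPM scale. Ch25h, which makes an oxysterol that Cyp7b1 acts on, averaged 1.69 TPM in High and 12.5 TPM in Low (-3.03, adjusted p = 0.0117).

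Cyp17a1, the steroid hydroxylase and lyase on the way to androgens, was low in most bins and highest in High. Its libraries had 0.381, 0.595 and 0.911 in Low, 1.03, 0.323 and 1.15 in MedLow, 1.83, 2.83 and 1.97 in HiMed and 6.33, 12.1 and 8.51 in High TPM. The High libraries lay above all others and the HiMed libraries above the dimmer ones. The level in High was above that in Low (log2 fold change 3.61 ± 0.53 (SE), adjusted p = 8.86e-05, edgeR) and HiMed (log2 fold change 1.87 ± 0.48 (SE), adjusted p = 0.0133), and the second call was lost without HiMed replicate 3 or High replicate 2. Cyp11a1, which makes the first steroid from cholesterol, had a highest bin mean of 0.0392 TPM, and Cyp19a1, the aromatase, had 0 counts. Of the steroid and oxysterol enzymes of other families, 3 of 10 tested were higher and 1 was lower in High than in Low, against 20.1% and 21.2% of all genes. Hsd17b2, which inactivates sex steroids, averaged 42.0 TPM in High and 0.795 TPM in Low (5.61, adjusted p = 1.26e-06). Hsd3b7, an enzyme of bile acid synthesis, averaged 38.5 TPM in High and 7.42 TPM in Low (1.98, adjusted p = 2.59e-05).

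Cyp39a1, an oxysterol hydroxylase of bile acid synthesis, had nearly one TPM level in every bin, averaging 22.98 ± 0.451 TPM in Low, 22.2 ± 2.4004 TPM in MedLow, 22.97 ± 1.07 TPM in HiMed and 22.8 ± 1.63 TPM in High (SD, n = 3), with no difference called (adjusted p = 0.261). Cyp46a1, the cholesterol hydroxylase known from neurons, averaged 2.73 ± 0.396 TPM in Low, 3.82 ± 1.81 TPM in MedLow, 7.83 ± 2.28 TPM in HiMed and 6.39 ± 4.42 TPM in High, and High replicate 3, at 1.43 TPM, stood apart from the other High libraries at 9.94 and 7.79 TPM. The test of any difference gave no call for Cyp46a1 (adjusted p = 0.0896), or adjusted p = 0.0405 with the replicate block. HiMed against Low was called (log2 fold change 1.60, adjusted p = 0.0428, edgeR), in a comparison where 12.4% of all genes were called higher. Without High replicate 3 it was higher in High than in Low (adjusted p = 0.00636). Cyp20a1, a P450 with no known substrate, averaged 7.29 ± 1.23 TPM in Low, 7.32 ± 0.977 TPM in MedLow, 8.93 ± 1.29 TPM in HiMed and 14.7 ± 0.268 TPM in High, and its High libraries lay above all others. In High it was higher than in Low (log2 fold change 0.74 ± 0.18 (SE), adjusted p = 0.0041, edgeR), and the call of High over HiMed (adjusted p = 0.0242) was lost without any 1 of the High libraries or HiMed replicate 1 or 2, and without a filter on low counts (adjusted p = 0.082).

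None of the CYP1 genes, the classical targets of the aryl hydrocarbon receptor, reached the threshold: Cyp1a1 was at most 0.107 TPM, Cyp1a2 had 0 counts and Cyp1b1 was at most 0.976 TPM by bin mean. Cyp1b1 was still called higher in High than in Low (log2 fold change 3.84 ± 1.13 (SE), adjusted p = 0.0147, edgeR). It averaged 0.0479 TPM in Low, and its High libraries were at 0.256, 2.00 and 0.671 TPM. The test of any difference gave no call for Cyp1b1 (adjusted p = 0.0561). The receptor gene Ahr itself averaged 37.5 TPM in High and 14.98 TPM in Low (log2 fold change 1.20, adjusted p = 1.03e-05, edgeR), and Nqo1, a target of it, was higher by 1.08. Arnt2, a relative of its partner protein, averaged 2.503 TPM in High and 0.0514 TPM in Low (3.67, adjusted p = 0.02). Its High libraries were far apart, at 5.70, 0.472 and 1.34 TPM. Tiparp, another target, was lower, with 27.7 TPM in High and 29.3 TPM in Low (-0.30, adjusted p = 0.0255). Of the aryl hydrocarbon receptor pathway, 3 of 6 tested were higher and 1 lower, against 20.1% and 21.2% of all genes. The vitamin D enzymes Cyp2r1, Cyp27b1 and Cyp24a1 also stayed below it, at up to 0.424, 0.615 and 0.0220 TPM. Vdr, the vitamin D receptor gene, averaged 16.9 TPM in High and 38.7 TPM in Low (-1.32, adjusted p = 1.02e-07).

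Of the partners of electron transfer to P450 enzymes, 3 of 10 were higher and 3 lower in High than in Low, against 20.1% and 21.2% of all genes. Por, the oxidoreductase that serves the P450 enzymes of the endoplasmic reticulum, averaged 183 ± 3.79 TPM in Low, 246 ± 13.7 TPM in MedLow, 403 ± 8.66 TPM in HiMed and 656 ± 92.7 TPM in High (SD, n = 3), and was higher in High than in Low by 1.52 ± 0.08 on the log2 scale (SE, adjusted p = 9.82e-09, edgeR). Cyb5a, cytochrome b5, was higher by 0.84 (adjusted p = 4.50e-06). Pgrmc2, a heme-binding membrane protein, was lower, at -0.42 (adjusted p = 0.00105), with 38.1 TPM in High and 38.6 TPM in Low. Fdx2, a mitochondrial ferredoxin, was also lower, at -0.92 (adjusted p = 0.00482), while Fdx1, the ferredoxin that serves Cyp27a1, averaged 46.8 TPM in both High and Low. Of the enzymes that make or break down heme, 1 of 10 was higher and 2 were lower in High than in Low, against the same shares. The one that was higher was Alas1, the first step of heme synthesis (0.58, adjusted p = 0.000861), and Cpox, a later step, was lower, at -0.64. Of the nuclear receptors listed as controlling P450 genes, none of 7 tested was higher in High and 4 were lower, against 20.1% and 21.2% of all genes. Of that list Nr1i2, Nr1h4 and Hnf4a had 0 counts. At an unadjusted p below 0.05 0 of these 7 were higher, and DESeq2 also called 0. The retinoic acid receptors were not in this list but among the retinoid genes. There Rarb was higher in High (log2 fold change 4.92, adjusted p = 1.17e-08, edgeR), and no other retinoic acid receptor was called higher.

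Of the 4 gene clusters with more than 1 of the 28 genes, those on chromosomes 17 and 19 had 1 peak bin by mean TPM and those on chromosomes 7 and 4 had more. On chromosome 7, a cluster of 13 P450 genes held 5 of the 28, with Cyp2f2, Cyp2s1 and Cyp2a5 highest in HiMed, Cyp2b10 in High and Cyp2g1 in Low. On chromosome 4, Cyp2j6 was highest in High and Cyp2j9 in HiMed, although the bins of Cyp2j9 did not differ by test. The 4 Cyp4f genes on chromosome 17 all had their highest mean TPM in High, and Cyp2c65 and Cyp2c66 on chromosome 19 in MedLow. Reads were split between Cyp2c65 and Cyp2c66, so their peak bins are not independent. However, Cyp4f39 was highest in MedLow by CPM, and Cyp4f13 in HiMed without High replicate 3. For neither was a difference among the bins called in the main edgeR test (adjusted p = 0.181 and 0.536). By mean TPM over the bins, there were 7 genes whose bin means climbed at every step, 2 whose means fell at every step, Cyp2w1 and Cyp4b1, and 19 with neither order. These orders were not counted over all genes, of which 47.7% peaked in High by TPM and 36.3% by CPM.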

How the data were processed

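The submitters' processing notes name Salmon 1.4.0, DESeq2 1.28.1 and the build mm39. The annotation is not given in the sources used here. Per the file columns the authors deposited expected counts and TPM per gene symbol for 12 libraries, and TPM carries a length correction that the counts do not. Expected counts were rounded to whole numbers. They were tested with edgeR 4.0.16 in R 4.3.3 after filterByExpr (minimum count 10, 17432 genes) and TMM scaling. The quasi-likelihood model had 1 term per bin over all 12 libraries, with Benjamini-Hochberg adjustment over all genes tested and calls at 0.05. The genes left out held 0.034% of all counts. CPM values carry TMM scaling, and a standard error is the one implied by the F statistic. A gene with 0 counts in a bin was compared with a floor of 3 counts summed over that bin's libraries. Floors cover counting error only.

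Pseudogenes and gene order came from RefSeq, which is on GRCm38.p6 and not mm39, and its coordinates are given for the promoter windows alone. Replicate numbers were taken to pair libraries because the series' design gives 3 replicates of several mice, sorted into 4 bins, which implies but does not state that equal numbers share mice. Over 9650 genes, deviations of same-numbered libraries correlated at 0.0586 to 0.411 in 18 pairs, against -0.321 to 0.101 for other pairs, and 12 of 12 libraries were closest to their own number. The alternatives were the replicate block, other scaling, filters and tools (DESeq2 1.42.0, limma 3.58.1 on TPM), and leaving out each library. The edgeR fit was tested on simulated data. The 28 genes and all gene lists were chosen with earlier results of these data known. The rule for named genes was every P450 gene of the symbol rule with 1 TPM or more in some bin, library values for the 16 with the smallest p, and up to 4 genes of each pathway list by p in High against Low, plus partners of a P450 gene described, such as Aldh1a1, Aldh1a3 and Crabp1. Library values of Cyp4f39 and Cyp2ab1 were added after they were seen. Arnt and the other listed genes not named enter the counts only, and 2 listed genes are not reported here.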

Additional observations from a re-analysis of the deposited data

How the results depend on the processing

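The counts of P450 genes kept within 1.5 times their value under the alternatives run, except as follows. Genes lower in High than in Low numbered 3 with limma on log2(TPM + 1), 3 with a pseudocount of 0.1 and 4 without a filter, in place of 7. Genes lower in MedLow than in Low numbered 1 with DESeq2 and 1 with only the 6 libraries of those bins, in place of 0. Leaving out each library in turn gave 3 to 7 genes higher and 2 to 4 lower in HiMed than in MedLow, and 5 to 10 with a peak bin called above all others. The sign of 2 genes turned, neither called: Cyp7b1, High over Low, was 0.067 on TPM with a pseudocount of 1, with or without the filter, and 0.08 with 0.1, and ran from -0.280 to 0.051, positive without Low replicate 1, on leaving out a library. Cyp2j9 ran from -0.117 to 0.251, negative without High replicate 2. The cause was not tested. With the replicate block, 22 P450 genes differed, 12 were higher and 7 lower in High than in Low, and 9 and 0, 7 and 4, and 6 and 8 between neighbouring bins from dim to bright. The block changed no other call than those given beside the genes. Of the 27 genes, 19 kept direction and side of the threshold for High over Low under each alternative that tested them. Over all genes, counts moved by more than 1.5 times mainly on the TPM scale: genes lower in High than in Low numbered 1995 to 2072 there (3702 in edgeR), and those lower in High than in HiMed 845 to 1089 (2018), with 1277 in the fit to 6 libraries. Genes lower in HiMed than in MedLow numbered 347 to 440 (1066), and 592 to 676 without MedLow replicate 1 or 2 or HiMed replicate 3. Genes higher in MedLow than in Low numbered 305 to 415 (711), and 441 and 464 without MedLow replicate 3 or Low replicate 1, and lower ones 237 to 287 (440), with 741 by DESeq2 and 768 with 6 libraries. Genes higher in HiMed than in MedLow numbered 778 without MedLow replicate 2 (1286). Without a library, MedLow against Low gave 233 to 288 lower genes in the 6 cases that moved. Peak bins held for 25 to 28 genes. Fold changes of genes with few counts are limited by depth.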
